A study of Homo sapiens with 4 samples.

Results

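The genes described here are MYC, its partner MAX and 38 genes of ribosome biogenesis, read in MV4-11 cells that carried a control hairpin or 1 of 3 hairpins directed at RUNX1. The members were given as a list of 40 gene symbols, and each was read from a probe set that the platform annotation assigns to that symbol alone, taking the probe set with the highest mean over the 4 arrays where a gene has several. This gave values for 34 of the 40 genes, out of 12519 protein-coding genes tested, and all 34 passed the filter on low signal. For DKC1, NOP56 and PPAN the listed probe sets are shared with other genes, so no value is given, and DDX18, EBNA1BP2 and GNL3 were not analysed here.

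MV4-11 is a long-established human line derived from an acute myelomonocytic leukaemia and carries a KMT2A-AFF1 fusion. Cells were transduced with a short hairpin RNA and kept in 3 µM doxycycline for 24 h. The groups are a control hairpin against luciferase, a RUNX1 hairpin labelled as a moderate knockdown, and separate RUNX1 hairpins labelled profound 1 and profound 2. Each group is 1 array, so no difference below has a replicate check and none carries a p-value. A description field of the profound 1 array names RUNX2 as the target and that of profound 2 names RUNX3, whereas their titles and genotype fields give RUNX1; the groups used here rest on the genotype.

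The values are log2 RMA signals, in which a difference of 1 is a 2-fold difference in signal. Array medians lay between 3.07 and 3.09. The RUNX1 probe set, which is shared with LOC100506403, had a signal of 4.27 with the control hairpin, 4.33 with the moderate one, 4.07 with profound 1 and 4.04 with profound 2, so it did not show a graded loss and each array is called here by its label. Of 10 measured blast and monocyte markers 9 exceeded the table median of 3.08, LYZ reading 11.3 in control, and CD14 did not; their mean level lay between 6.98 and 6.99 in each array. The epithelial list did so in 3 of 5 genes, the B cell list in 2 of 3, and the T cell, erythroid and fibroblast lists in 1 gene each, none of these reading above 4.80; the defining T cell genes CD3D, CD3E and CD3G stayed below it in every array.

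Ribosomes are built in the nucleolus, where RNA polymerase I transcribes the ribosomal RNA precursor and a large set of proteins modifies, cleaves and folds it into the small and the large subunit. MYC, a transcription factor that binds DNA together with MAX, is known for promoting growth in many blood cancers and for raising many genes of this pathway. Small nucleolar ribonucleoproteins (snoRNPs), complexes of a guide RNA and proteins, direct the modification of ribosomal RNA: those with box C/D guides methylate it and those with H/ACA guides isomerise uridine.

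The genes of ribosome biogenesis were lower in the profound 1 array than in the control array nearly throughout, by small amounts. Of 34 measured members 32 (94.1%) read below control there, against 50.5% of all tested genes, and NOC3L, POLR1B and NIP7 stood lowest, with differences of -0.51, -0.50 and -0.50 log2 units. MAX and NOC2L were the 2 members above control. The array labelled as the moderate knockdown (the moderate-knockdown array) lay a little below control (25 of 34 members, 73.5%, against 48.1%). When arrays are centred on housekeeping levels, 11 of 34 were below control there, with a median of 0.042 beside 0.11 for all tested genes. The profound 2 array showed no common direction (16 of 34 members, 47.1%, against 50.3%). In these bulk samples, fewer cells of a type and less RNA per cell cannot be told apart, and normalisation to equal distributions hides a change shared by most transcripts.

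No member differed from control by 1.5-fold (0.58 log2 units) in any of the 3 arrays. In profound 1, 4.04% of all tested genes were lower and 2.68% higher by that size; the shares were 0.447% and 0.863% in the moderate-knockdown array and 1.01% and 1.2% in profound 2. At 1.2-fold (0.26 log2 units), 12 of 34 members (35.3%) were lower in profound 1, against 17.2% of all genes and 18.3% of those with a mean above the 75th percentile of the table (5.05), as all members had. Centred on housekeeping genes, by either way of centring described further on, 5 of 34 were lower by that size. Those centrings put the median of all tested genes at 0.11 and 0.12. The share of all genes lower by 1.2-fold was not recomputed under them, so 17.2% is not the background of that count. As deposited, none of the members was higher by 1.2-fold in profound 1, against a background of 15.7%. In the moderate-knockdown array, 0 members were lower by 1.2-fold (background 7.14%) and 1, MAX, was higher (background 9.49%). In profound 2 RRN3 was the 1 member lower (background 9.75%) and NPM1 the 1 member higher (background 10.6%). Genes with a mean above the 75th percentile had smaller shares. Of these, 13.7% were higher in profound 1. In the moderate-knockdown array 3.58% were lower and 5.82% higher, and in profound 2 7.45% and 6.48%.

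The median difference over the 34 members was -0.17 in profound 1, -0.063 in the moderate-knockdown array and 0.0098 in profound 2. Over all tested genes these medians were -0.0029, 0.0063 and -0.0015. As a yardstick of spread, a robust SD (the median absolute deviation, scaled) was computed for moderate minus control in each of 6 classes of mean level; it ranged from 0.11 to 0.19 for the classes that hold the members, and contains noise and any real difference together. In profound 1, 24 members (70.6%) were below control by more than the spread of their level, against 26.1% of all genes, and MAX was the 1 member above it by that much. That 26.1% is not matched to the members' level. The robust SD of profound 1 minus control was 0.22 in the brightest class, where the yardstick was 0.11. In the next class it was 0.26 beside 0.13, but in the dimmest class of all genes 0.27 beside 0.25. Bright genes thus pass this rule more readily in profound 1 than dim ones. In profound 2, 4 members were below by that much (background 19.3%) and 9 above (background 18.6%), and in the moderate-knockdown array 10 were below (background 14.8%). Both profound arrays were below control in 15 members (44.1%), against 32.7% of all genes. Since 32 of 34 members were below control in profound 1, this share mostly restates the 16 below it in profound 2. It does not measure agreement between the profound arrays. The 3 comparisons share the control array, so their values are not independent.

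**Figure D1:**
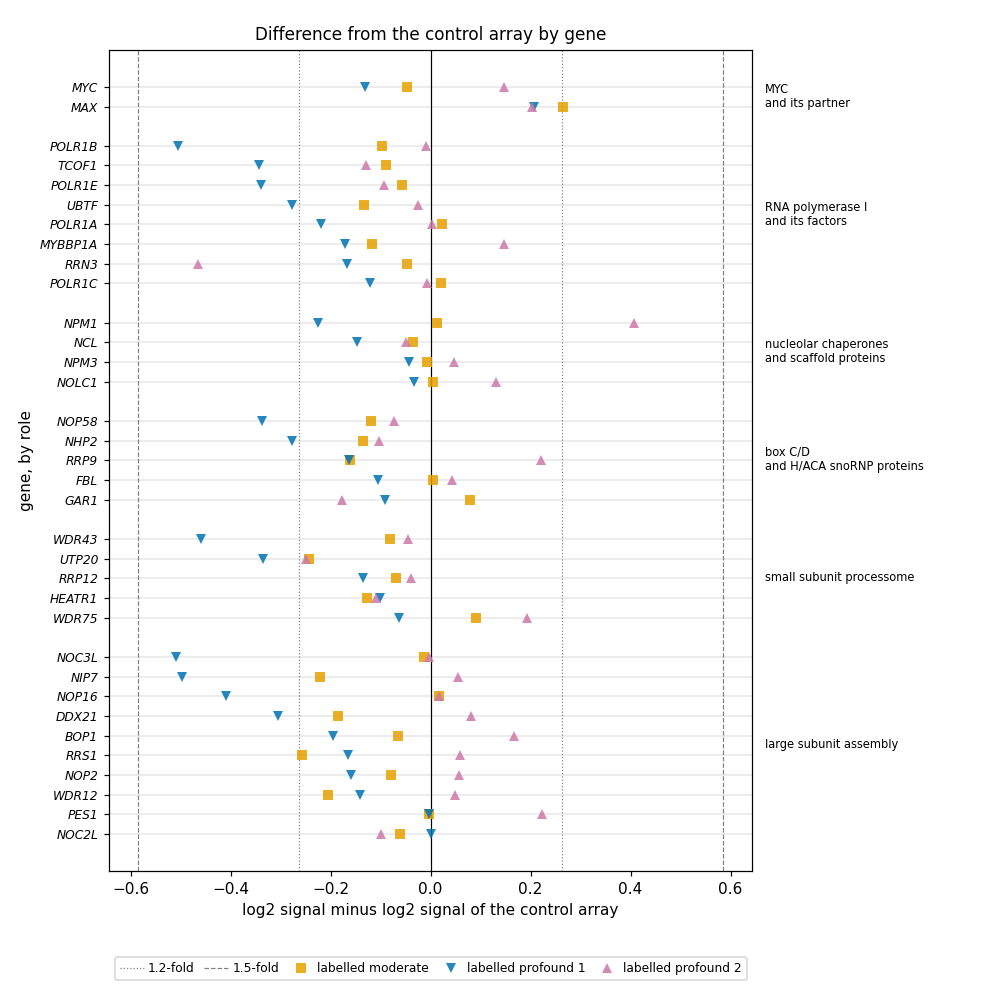
Difference from the control array (x axis, log2 units) for each of 34 genes (y axis, grouped by role), with 1 symbol per RUNX1 hairpin array; dotted lines mark 1.2-fold and dashed lines 1.5-fold. Symbols of profound 1 lie left of 0 for 32 genes, 12 of them at or beyond 1.2-fold, whereas those of profound 2 lie on both sides and no symbol reaches 1.5-fold.

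MYC itself was among the brighter genes of the table and differed from control by less than 1.2-fold in each hairpin array. MYC read 9.74 in control, 9.70 in the moderate-knockdown array, 9.61 in profound 1 and 9.89 in profound 2. The lowest value was that of profound 1 and the highest that of profound 2, with differences from control of -0.13 and 0.15 beside a spread of 0.11 for genes of this level. Set against each other, MYC was 1.21-fold lower in profound 1 than in profound 2 (-0.28 log2 units). MAX, the obligate partner of MYC, read 5.28 in control, 5.54 in the moderate-knockdown array and 5.48 in both others. It was lowest in the control array, with differences of 0.26, 0.21 and 0.20, and is the 1 member whose lowest array was control.

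MYC and MAX bind the E-box CACGTG, and the promoters of the measured members were searched for it, since many members read lower in the same array. Promoters were RefSeq windows of assembly GRCh38.p14 from 250 bases before to 50 bases after the gene start, given for 26 of the 34 measured members. The letters CACGTG, which read the same on both strands, were present in 10 of these 26 (38.5%), compared with 12.2% of 10257 tested genes and 10.9% of 15842 protein-coding genes with a window. In all 10 the match lay within 50 bases of the start, which holds for 40.9% of the 1249 tested genes with a match. The RUNX core letters TGTGGT, searched on both strands (ACCACA on the other), were found in 3 of the 26 windows (WDR12, NIP7 and DDX21; 11.5%), against 13.4% of tested genes. A match is a description of the letters and not evidence of binding.

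To show how alike the surroundings of these matches are, 30 bases around each are given below from 5′ to 3′ on the gene's strand, with the E-box in capitals, ordered by the gene's difference in profound 1.
NOC3L (GRCh38.p14 chr10:94362903-94362932, minus strand): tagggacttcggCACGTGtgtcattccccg
WDR43 (chr2:28894658-28894687, plus strand): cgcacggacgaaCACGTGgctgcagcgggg
UTP20 (chr12:101280083-101280112, plus strand): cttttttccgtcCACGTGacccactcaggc
DDX21 (chr10:68956604-68956633, plus strand): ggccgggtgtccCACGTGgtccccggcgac
MYBBP1A (chr17:4555340-4555369, minus strand): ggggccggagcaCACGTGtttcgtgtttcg
RRP9 (chr3:51941892-51941921, minus strand): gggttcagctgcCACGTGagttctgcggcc
NOP2 (chr12:6568242-6568271, minus strand): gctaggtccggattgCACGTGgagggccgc
FBL (chr19:39846356-39846385, minus strand): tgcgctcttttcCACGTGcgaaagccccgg
GAR1 (chr4:109815781-109815810, plus strand): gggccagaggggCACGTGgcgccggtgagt
PES1 (chr22:30591880-30591909, minus strand): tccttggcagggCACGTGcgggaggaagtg

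The E-box began before the gene start in 3 of these genes, at 31 bases in DDX21, 10 in UTP20 and 5 in RRP9. In the other 7 it lay in the first bases transcribed, from base 4 in WDR43 to base 36 in NOP2. The 250 bases before the start of UTP20 are given as an example of a whole promoter, since its E-box lies ahead of the start.
UTP20 (GRCh38.p14 chr12:101279855-101280104, plus strand): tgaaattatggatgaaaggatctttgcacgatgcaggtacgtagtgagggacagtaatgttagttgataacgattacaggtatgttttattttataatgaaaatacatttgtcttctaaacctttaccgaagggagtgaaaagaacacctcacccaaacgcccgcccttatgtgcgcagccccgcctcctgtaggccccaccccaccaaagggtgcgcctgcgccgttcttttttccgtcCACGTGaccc

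The E-box did not sort the members by their difference between profound 1 and control. In profound 1 the 10 members with the letters had a median of -0.17 (from -0.51 to -0.0033) and the 16 with a window but no match one of -0.16 (from -0.50 to 0.21). At 1.2-fold 4 of the 10 and 5 of the 16 were lower (background 17.2%). NOC3L and WDR43 carry the letters and POLR1B and NIP7, of like difference, do not. Other comparisons varied. Between profound 1 and profound 2 the median was -0.27 with the letters and -0.18 without. There 5 of the 10 and 4 of the 16 were lower by 1.2-fold (background 17.1%). Between profound 1 and the moderate-knockdown array it was -0.10 with and -0.14 without. Against control it was 0.050 and -0.0022 in profound 2 and -0.081 and -0.041 in the moderate-knockdown array. A part of the letters in these values was not tested.

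Among the genes of RNA polymerase I, all 8 measured members read below control in profound 1, with a median of -0.25, and 4 of them (POLR1B, TCOF1, POLR1E and UBTF) by 1.2-fold. Over all tested genes 50.5% were below control in profound 1 and 17.2% by 1.2-fold, which is the background for each group that follows. POLR1B, a subunit of the active centre, read 5.90 in control, 5.80 in the moderate-knockdown array, 5.39 in profound 1 and 5.89 in profound 2. The profound 1 value stood alone, 1.42-fold below control, while the other 3 arrays lay within 0.10 log2 units. TCOF1, which encodes treacle, a nucleolar protein that supports ribosomal RNA transcription, read 6.27 in control, 6.18 in the moderate-knockdown array, 5.92 in profound 1 and 6.14 in profound 2. UBTF, the upstream binding factor of ribosomal DNA, read 7.83, 7.70, 7.56 and 7.81 in the same order. Both were again lowest in profound 1, by 0.34 and 0.28 log2 units from control.

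POLR1A, the largest subunit, read 7.40 in control, 7.43 in the moderate-knockdown array, 7.18 in profound 1 and 7.41 in profound 2. Its other probe set was likewise lowest in profound 1, with a difference of -0.18 beside -0.22 for the one used. POLR1C, a subunit shared with RNA polymerase III, differed least in this group, reading 6.41, 6.43, 6.28 and 6.40. POLR1E, a subunit that helps hold initiation factors, read 7.91, 7.85, 7.57 and 7.82, a difference of -0.34 in profound 1. Its other, dimmer probe set gave 6.18, 5.95, 6.35 and 5.83, a difference of 0.17 in the opposite direction, so the direction of POLR1E depends on the probe set. MYBBP1A, a nucleolar protein that binds MYB, read 8.002 in control, 7.89 in the moderate-knockdown array, 7.83 in profound 1 and 8.15 in profound 2, with the profound arrays on either side of control.

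RRN3, the factor that recruits RNA polymerase I to ribosomal DNA, differed from the pattern of its group. It read 7.58 in control, 7.53 in the moderate-knockdown array, 7.41 in profound 1 and 7.11 in profound 2. Its lowest array was profound 2, at 1.38-fold below control (-0.47 log2 units), the lowest difference of any member in that array. RRN3 has pseudogene copies, so its signal may not be its own. The probe set of RRN3P1 read 3.35, 2.98, 2.52 and 2.42 in the same order, that of RRN3P2 5.22, 5.46, 5.84 and 5.12, and that of RRN3P3 4.63, 4.72, 4.86 and 4.95. RRN3P1, though dim, and RRN3P2 were thus also lowest in profound 2, and RRN3P3 was highest there. Their part in the RRN3 signal was not tested.

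The nucleolar chaperones and scaffold proteins were close to control in profound 1, with a median of -0.096 over 4 measured members and none lower by 1.2-fold. NPM1, which encodes nucleophosmin, a chaperone of ribosomal and histone proteins, read 5.42 in control, 5.43 in the moderate-knockdown array, 5.19 in profound 1 and 5.82 in profound 2. It was the lowest in profound 1 and the highest in profound 2, and its difference of -0.63 between both arrays (1.55-fold) was the largest range of any member. NPM1 has many near-identical processed copies in the genome, so this value is uncertain. NCL, which encodes nucleolin, read 8.07, 8.03, 7.92 and 8.02 in the same order, a difference of -0.15 in profound 1. NOLC1, a chaperone of snoRNPs, read 8.79, 8.80, 8.76 and 8.92, and NPM3, a relative of nucleophosmin, stayed between 6.21 and 6.30. For NOLC1 and NPM3 the difference in profound 1 was within the spread of their level.

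The snoRNP proteins were all below control in profound 1, with a median of -0.16 over 5 measured members. NOP58, a core protein of box C/D snoRNPs, read 10.2 in control, 10.1 in the moderate-knockdown array, 9.88 in profound 1 and 10.1 in profound 2. NHP2, a core protein of H/ACA snoRNPs, read 8.63, 8.50, 8.36 and 8.53. These were the 2 members of the group lower by 1.2-fold in profound 1, at -0.34 and -0.28, and both were also below control in the other arrays by 0.07 to 0.13 log2 units. RRP9, a protein of the snoRNP that guides early cleavage of the precursor, read 5.91, 5.75, 5.75 and 6.13, nearly equal in the moderate and profound 1 arrays and highest in profound 2. FBL, the methyltransferase fibrillarin, stayed between 10.3 and 10.4. GAR1, another H/ACA core protein, read 6.04, 6.12, 5.95 and 5.86, and its lowest array was profound 2.

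The small subunit processome, the complex that assembles on the precursor of the small subunit RNA, had a median of -0.14 in profound 1 over 5 members. WDR43 read 8.15 in control, 8.07 in the moderate-knockdown array, 7.69 in profound 1 and 8.10 in profound 2. Its lowest array was profound 1, at 1.38-fold below control, and the other 2 hairpin arrays lay within the spread of its level from control. UTP20 read 7.32, 7.07, 6.98 and 7.07 in the same order. Here control was the high array and all 3 RUNX1 hairpin arrays lay below it, by 0.24, 0.33 and 0.25 log2 units. HEATR1 had the same arrangement at a smaller size, 8.54 in control against 8.41, 8.43 and 8.43. RRP12, which acts in maturation and export of the small subunit, read 7.97, 7.90, 7.83 and 7.93. WDR75 differed least in profound 1, reading 8.95, 9.04, 8.89 and 9.14, with its highest value in profound 2.

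The large subunit assembly genes held the largest differences in profound 1 and also the smallest. Their median was -0.18 over 10 measured members, of which 9 were below control and 4 (NOC3L, NIP7, NOP16 and DDX21) by 1.2-fold (backgrounds 50.5% and 17.2%). NOC3L, a nucleolar factor of early large subunit particles, read 7.73 in control, 7.71 in the moderate-knockdown array, 7.22 in profound 1 and 7.73 in profound 2. NOP16 read 7.11, 7.13, 6.70 and 7.12. In both genes 3 arrays lay within 0.02 log2 units of each other and profound 1 stood 1.42-fold and 1.33-fold below control. NIP7, an RNA-binding assembly factor, read 8.97, 8.75, 8.47 and 9.02, and the RNA helicase gene DDX21 read 9.93, 9.75, 9.63 and 10.0. For these 2 genes the moderate-knockdown array lay between profound 1 and control.

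BOP1, PES1 and WDR12 encode the subunits of 1 complex that processes the large subunit RNA, and they were not shifted alike. BOP1 read 7.65 in control, 7.59 in the moderate-knockdown array, 7.46 in profound 1 and 7.82 in profound 2. The other, dimmer probe set of BOP1 read 6.10, 6.11, 6.06 and 6.27, a difference of -0.04 in profound 1 beside -0.19 for the one used. PES1 read 6.22, 6.21, 6.21 and 6.44, with 3 nearly equal arrays and profound 2 above them. WDR12 read 7.73, 7.52, 7.59 and 7.78, its lowest array being the one labelled moderate. What they shared was a highest value in profound 2, where their differences from control were 0.17, 0.22 and 0.05. The same held for RRS1, which read 7.69, 7.43, 7.52 and 7.75, and for NOP2, an RNA methyltransferase, which read 8.45, 8.37, 8.29 and 8.51. NOC2L stayed between 5.62 and 5.72, a range of 0.10.

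**Figure D2:**
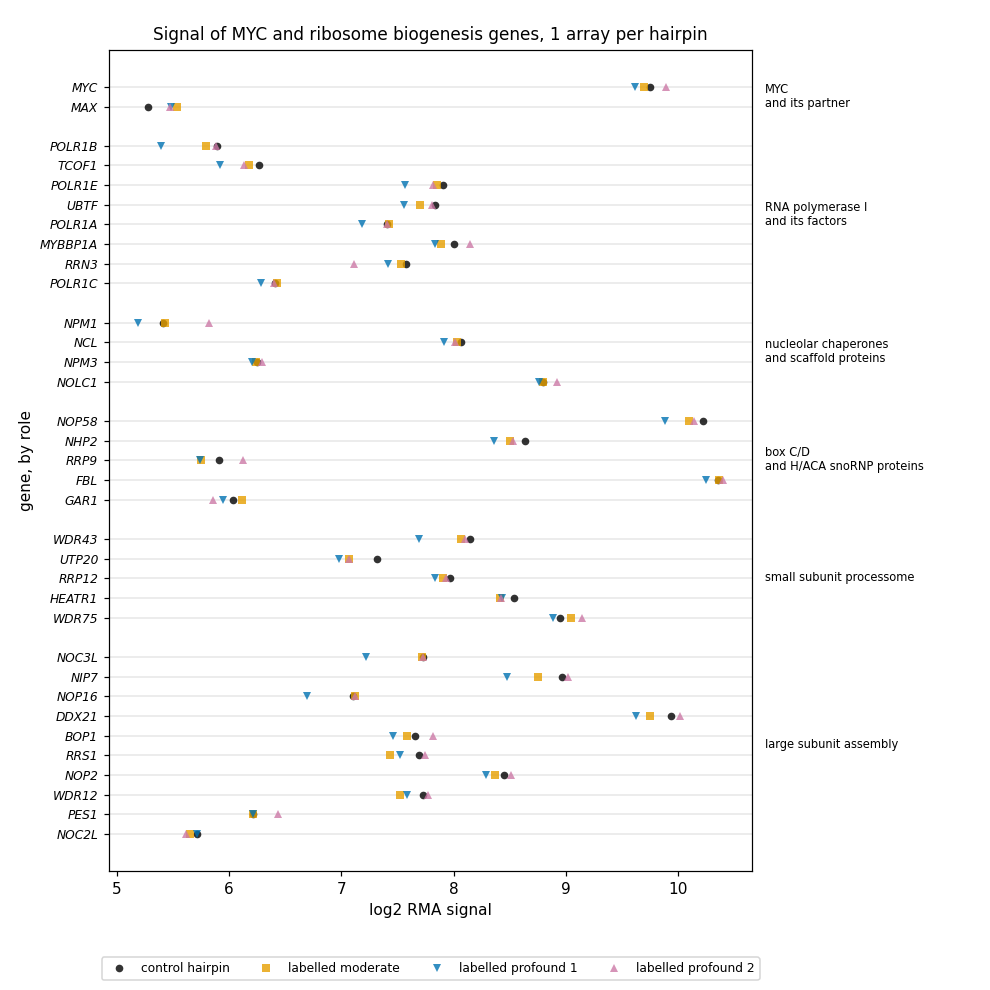
Log2 RMA signal (x axis) of 34 genes (y axis, grouped by role), with 1 symbol for each of 4 arrays; there is 1 array per hairpin and hence no error bar, and signals of different probe sets are not comparable between genes. The profound 1 symbol is the leftmost for 26 genes, while the range over the arrays was 0.28 log2 units in the median gene and 0.63 at most (NPM1).

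The order of the 4 arrays within a gene does not depend on which array serves as the reference. Profound 1 was the lowest of the 4 arrays in 26 of 34 members (76.5%), against 32.7% of all tested genes. The order does depend on how the arrays are scaled. With cyclic loess the count was 25, and it was not recomputed under centring on housekeeping genes. Centred on their levels, 12 of 34 members were lower in profound 1 than in profound 2, and centred on their deviations 24. Medians of all tested genes were then 0.25 and 0.14. The counts that follow are as deposited. The array labelled moderate was lowest in 4 (HEATR1, PES1, WDR12 and RRS1; background 19.2%), profound 2 in 3 (RRN3, GAR1 and NOC2L; background 24.3%) and control in 1 (background 23.7%). The highest array was profound 2 in 15 members (background 24.0%), control in 13 (22.7%), moderate in 5 (23.0%) and profound 1 in 1, NOC2L (30.3%). The members did not vary more than other genes: their median range over the arrays, 0.28 log2 units, compares with 0.31 over all tested genes and 0.27 over those with a mean above the 75th percentile.

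Profound 1 was also the lower array in comparisons that leave the control array out. Against the moderate-knockdown array, 29 of 34 members were lower in profound 1 (85.3%, background 51.8%), with a median of -0.12 and 6 lower by 1.2-fold (17.6%, background 17.0%), a share near the background. The 6 were NOC3L, NOP16, POLR1B, WDR43, POLR1E and NIP7. Against profound 2, 29 of 34 members were lower in profound 1 (85.3%, background 51.1%), with a median of -0.22 and 12 lower by 1.2-fold (35.3%, background 17.1%). The 12 were BOP1, DDX21, MYBBP1A, MYC, NIP7, NOC3L, NOP16, NOP58, NPM1, POLR1B, RRP9 and WDR43. RRN3 was the 1 member higher by that size (0.30, background 14.7%). The other probe set of BOP1 differed by -0.22, short of 1.2-fold. NPM1 alone was lower by 1.5-fold (2.94% of members, background 2.95%). Against the moderate-knockdown array, profound 2 was lower in 11 members (32.4%, background 52.4%) and higher by 1.2-fold in 6 (DDX21, MYBBP1A, NIP7, NPM1, RRP9 and RRS1; background 10.7%), with RRN3 the 1 member lower by that size (background 12.1%). Among genes with a mean above the 75th percentile, 6.53% were higher and 9.61% lower by that size. Each pair of these comparisons shares an array.

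Centring the arrays on other genes adds a constant to every difference and so moves members and all genes alike. Between profound 1 and profound 2 the members' median was -0.23 with cyclic loess, a normalisation that depends on level (30 of 34 lower), -0.24 centred on tested genes (31 lower) and -0.078 centred on the deviations of 9 housekeeping genes from their own means (24 lower). Centred on the median level of those 9 genes it was 0.037 (12 lower), beside 0.25 for all tested genes, which that centring shifts by 0.26; the members' median stayed below that of all genes. That level is the value of the middle gene of the 9, which is not the same gene in every array. Under it 27 of 34 members were below control in profound 2, with a median of -0.14 beside -0.15 for all tested genes.

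**Figure D3:**
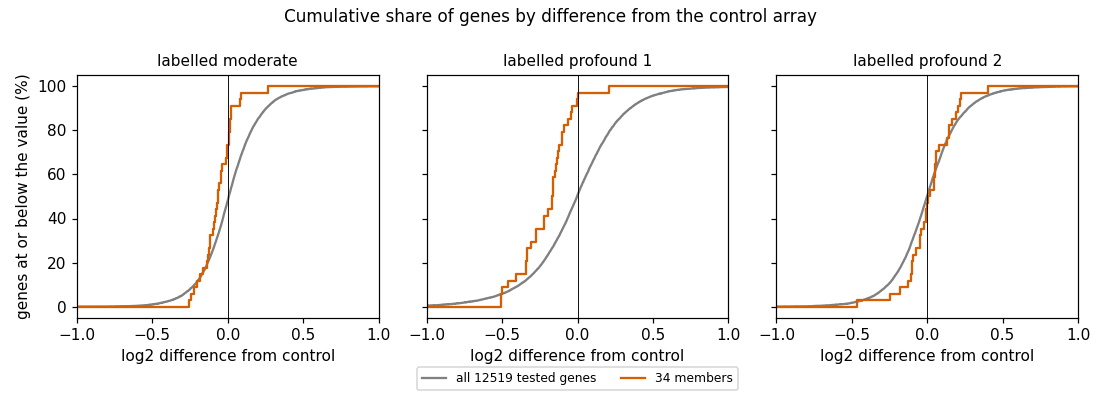
Cumulative share of genes (y axis, percent) by log2 difference from the control array (x axis) for the 34 members and for all 12519 tested genes, with 1 panel per RUNX1 hairpin array. The curve of the members lies to the left of that of all genes near 0 in profound 1, reaching 94.1% below 0 against 50.5%, but does not extend past -0.51, whereas in profound 2 the curves cross close to 0.

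The other genes of the pathway were examined through lists that hold none of the members, to be read against 50.5% of all tested genes below control in profound 1, 17.2% lower by 1.2-fold and 4.04% by 1.5-fold. Of 50 other small subunit processome genes, 38 read below control in profound 1 (median -0.15), 13 by 1.2-fold, while UTP6 (0.44) and NOL10 (0.38) were higher by that size. PNO1, an assembly factor of the small subunit, read 7.55 in control, 7.35 in the moderate-knockdown array, 7.001 in profound 1 and 7.56 in profound 2. UTP15 and BYSL had differences of -0.49 and -0.44 in profound 1. Of 43 other large subunit assembly genes, 30 were below control (median -0.07), 9 by 1.2-fold, a share near the background, and 1 by 1.5-fold. That gene is MRTO4, a factor related to the stalk protein of the large subunit, which read 8.07 in control, 7.90 in the moderate-knockdown array, 6.89 in profound 1 and 8.11 in profound 2, a difference of -1.18 in profound 1 that exceeds that of every member. DDX51 and URB2 followed at -0.53 and -0.52. Of 8 other RNA polymerase I genes 6 were below control (median -0.08), with POLR1G at -0.47 and POLR1H and POLR1F at -0.20 each. The moderate-knockdown array was also below control in most genes of these lists, against 48.1% of all tested genes. It was lower in 41 of the 50 small subunit genes (median -0.08) and 32 of the 43 large subunit genes (median -0.08). Among the 8 polymerase genes 5 were lower (median -0.07). By 1.2-fold 3, 5 and 0 genes were lower there (background 7.14%).

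The cytosolic ribosomal protein genes, the structural parts of the ribosome, were nearer to control in profound 1, with a median of -0.06 over 47 measured of 80 listed; 36 were below control, but the 7 lower by 1.2-fold are a smaller share than the 17.2% of all tested genes. RPS26 (-0.58), RPS4X (-0.37) and RPL7 (-0.36) differed most, and many of these genes have processed copies that make their probe sets uncertain. MYC targets outside the nucleolus had a median of -0.16 over 35 measured genes, of which 31 were below control, 15 by 1.2-fold and 3 by 1.5-fold (backgrounds 50.5%, 17.2% and 4.04%). The 3 were TYMS, the thymidylate synthase gene (-1.09), SLC7A5, an amino acid transporter gene (-0.65), and CTPS1, a CTP synthase gene (-0.60). TYMS also belongs to the list of DNA replication genes. In profound 2 the medians of these lists lay between -0.02 and 0.01, and in the moderate-knockdown array between -0.08 and -0.02.

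Relatives of MYC and MAX in the same network read mostly above control in the 2 profound arrays, but not in the moderate-knockdown array. Of 10 measured genes 7 read above control in profound 1 (median 0.17) and 9 in profound 2 (median 0.22), against 49.5% and 49.7% of all tested genes. In the moderate-knockdown array 5 of 10 did (median -0.0075), against 51.9%. MYCL, MYCN, MXD3 and MLXIPL are dim, reading below the 75th percentile of the table (5.05) in every array. MLX, MLXIPL and MXD3 were below control in profound 1 and MGA in profound 2, and none was lower by 1.2-fold in either. MXI1, a MAX partner that opposes MYC, read 6.11 in control, 6.13 in the moderate-knockdown array, 6.48 in profound 1 and 6.38 in profound 2. MXD1, another such antagonist, read 6.55, 6.76, 6.80 and 6.91. MLXIP, a glucose-responsive partner of MLX, read 6.65, 6.77, 6.98 and 6.88, and the dim MYCL read 3.61, 3.41, 3.89 and 3.83. At 1.2-fold MXI1, MLXIP and MYCL were higher in profound 1, and MXI1, MXD1 and MYCN in profound 2 (backgrounds 15.7% and 10.6%). Both comparisons share the control array.

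Genes of DNA replication moved with the members in profound 1 and by far more. Of 34 genes of G1/S entry and DNA replication all 34 were below control there by 1.2-fold and 29 by 1.5-fold (backgrounds 17.2% and 4.04%), with a median of -0.89 beside -0.17 for the members. CCNE2 (-1.55), E2F1 (-1.35) and CDC6 (-1.29) differed most. In profound 2 the median of this list was -0.15, with 32 of 34 below control (background 50.3%) and 4 by 1.2-fold (background 9.75%). In the moderate-knockdown array it was -0.17, with 33 of 34 below control (background 48.1%) and 7 by 1.2-fold (background 7.14%). These genes were thus below control nearly throughout in all 3 hairpin arrays, whereas 16 of 34 members were below it in profound 2. Housekeeping genes were also a little lower in profound 1, with a median of -0.12 over 9 measured genes, led by HPRT1 (-0.50), GAPDH (-0.35) and TFRC (-0.32). TFRC also belongs to the list of MYC targets outside the nucleolus, so these lists are not separate. The part of the replication or the housekeeping genes in the members' values was not tested. Centred on the median deviation of those 9 genes, which raises the median of all tested genes in profound 1 by 0.12, the members' median was -0.043, with 24 of 34 members below control and 5 by 1.2-fold, beside a median of 0.12 for all tested genes.

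**Figure D4:**
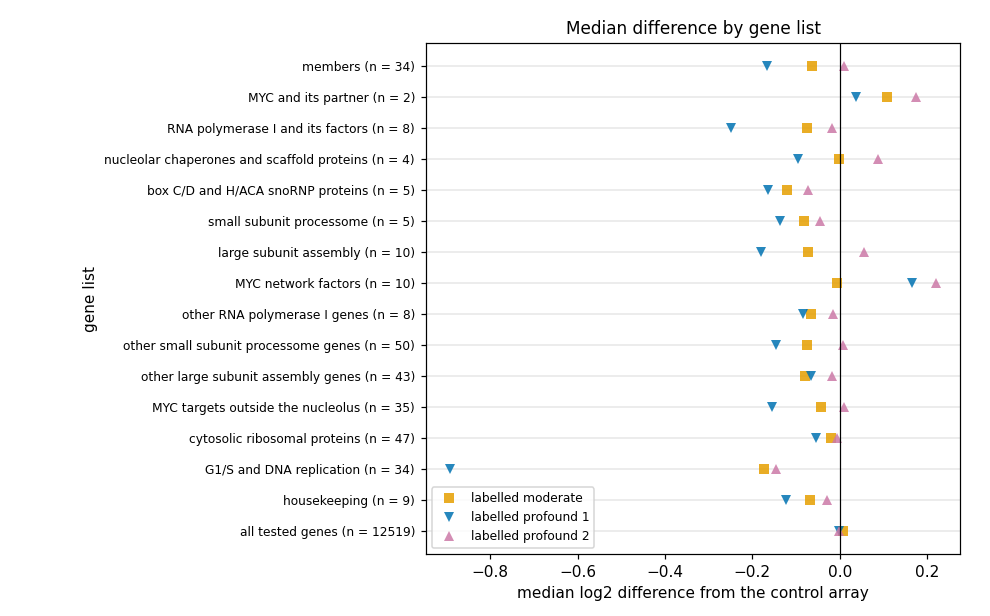
Median log2 difference from the control array (x axis) for the 34 members, their role groups, the other gene lists and all tested genes (y axis, with the number of genes), with 1 symbol per RUNX1 hairpin array and no error bar, since each group is 1 array. Medians of the members in profound 1 (-0.17) lie between those of all genes (-0.0029) and of the DNA replication genes (-0.89), while the MYC network factors lie at 0.17.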

How the data were processed

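The authors deposited log2 signals of 53617 probe sets on 4 arrays, made from total RNA. The submitters' processing notes name RMA, Transcriptome Analysis Console 1.0 and Affymetrix Expression Console 1.3.1. Their settings, and the genome build, were not stated in the sources used here. RMA corrects background, makes the arrays' distributions equal and summarises each probe set. The number of arrays limits the precision, and 0 columns of values were left unused.

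Platform annotation gives 23871 probe sets 1 gene symbol, 1842 several and 27904 none. Symbols were checked against RefSeq (GRCh38.p14): 23214 were unchanged, 88 were updated by Entrez ID, 565 by synonym and 4 kept. Tested genes are protein coding and exceed the table median (3.08) in at least 1 array. With 1 array per group no test was possible; differences were called by size, at 1.5-fold and 1.2-fold. On simulated arrays with known changes, the recovered median differences were checked against the true ones, whereas the counts by size were not. The simulated noise was the spread of moderate minus control. Members and lists were chosen with earlier results of these data known.

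Named genes are all members; values in 4 arrays were due for MYC, MAX, members past 1.5-fold and, in each role group, the 2 largest and the smallest differences in profound 1, and are also given for most others. In the pathway lists the 3 largest differences are named; MXD1, MYCN, MLX, MLXIPL, MXD3, MGA, UTP6 and NOL10 and the RRN3 pseudogenes were chosen after their values were seen. The rule allowed whole promoters of 4 members; 30-base stretches of 10 and 1 promoter are printed instead. Alternatives were cyclic loess (limma 3.58.1, R 4.3.3), centring on tested or housekeeping genes, averaging probe sets, other filters and sizes, and leaving out MYC and MAX; Python 3.11.15 was used otherwise.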

Additional observations from a re-analysis of the deposited data

How the results depend on the processing

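No paired analysis was possible because each group is 1 array, so the shared replicate number links no replicates, and no array could be left out of a group. Of 286 recomputed counts and medians 244 stayed within 1.5 times the count or within 0.13 log2 units of the median. The tally says little about stability. All 34 members pass both other filters, so those 18 and 18 alternatives could not change. Averaging could change only the 3 members with several probe sets. Against control, the allowance also passed a profound 1 median moving from -0.17 to -0.043 (housekeeping deviations). It likewise passed a moderate median moving from -0.063 to 0.042 (housekeeping levels). Of 204 single-gene differences 202 stayed within the spread of the gene's level, POLR1E with averaged probe sets being the exception. Centring on the deviations of housekeeping genes, and every alternative for counts at 1.2-fold or at any size, was chosen after seeing the data. Counts below are of 34 members, or of 32 without MYC and MAX. Shares of all tested genes were not recomputed under the centrings, so medians of all tested genes are given beside those counts. Beyond the alternatives' own construction the cause of a change was not tested.

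With housekeeping levels centred, profound 1 against control gave 5 members lower and 1 higher at 1.2-fold, and the moderate-knockdown array 11 lower at any size with a median of 0.042. Profound 2 against control then gave a median of -0.14, with 27 lower at any size, 4 at 1.2-fold and 1 at 1.5-fold, and 0 higher at 1.2-fold. Profound 2 against moderate gave a median of -0.21, with 27 lower at any size, 9 at 1.2-fold and 1 at 1.5-fold, and 0 higher. Profound 1 against profound 2 turned to a median of 0.037, with 12 lower at any size, 2 at 1.2-fold and 0 at 1.5-fold, and 5 higher at 1.2-fold. Medians of all tested genes were then 0.11 in moderate, 0.11 in profound 1 and -0.15 in profound 2 against control. They were -0.26 for profound 2 against moderate and 0.25 for profound 1 against profound 2. With housekeeping deviations centred, profound 1 against control gave 5 lower and 1 higher at 1.2-fold, and profound 2 against control 2 lower. Profound 2 against moderate gave 19 lower at any size, 2 lower and 2 higher at 1.2-fold, and profound 1 against profound 2 a median of -0.078 with 6 lower at 1.2-fold and 0 at 1.5-fold. Medians of all tested genes were here 0.12 in profound 1 and -0.024 in profound 2 against control. They were -0.079 for profound 2 against moderate and 0.14 for profound 1 against profound 2.

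Centred on tested genes, moderate against control gave 2 lower and 0 higher at 1.2-fold, and profound 2 against moderate 3 lower at any size. Medians of all tested genes in these comparisons were then -0.032 and 0.038. Cyclic loess, or leaving out MYC and MAX, left 0 higher at 1.2-fold in moderate against control. With 1.2-fold in place of 1.5-fold, the lower counts became 12 in profound 1 and 1 in profound 2 against control, 6 and 1 against moderate, and 12 for profound 1 against profound 2. The higher counts became 1 in moderate and 1 in profound 2 against control, 6 in profound 2 against moderate and 1 in profound 1 against profound 2. At 2-fold, 0 members were lower in profound 1 than in profound 2. Each group is 1 array, and for members of the dimmest class that holds any (MAX, NPM1 and NOC2L) the spread yardstick was 0.19.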
